A study of Mus musculus with 48 samples.

Results

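The nuclear respiratory chain genes are the genes of the cell nucleus that encode subunits and dedicated assembly factors of complexes I to V of the inner mitochondrial membrane. They were taken by symbol: genes outside the mitochondrial chromosome whose names begin with Nduf, Sdha to Sdhd, Uqcr, Atp5 or Cox4 to Cox8, without pseudogenes, listed in each of 3 count tables. This gave 102 of 54752 genes, under 101 symbols. Complex I (NADH dehydrogenase) had 47 members, complex II (succinate dehydrogenase) 8, complex III (cytochrome bc1) 8, complex IV (cytochrome c oxidase) 21 and complex V (ATP synthase) 18.

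Complexes I and II pass electrons from NADH and succinate to ubiquinone, complex III passes them to cytochrome c, and complex IV passes them to oxygen. Complexes I, III and IV pump protons on the way, and complex V uses the returning protons to make ATP. Complexes I, III, IV and V combine nuclear subunits with a few encoded by mitochondrial DNA, whereas complex II is entirely nuclear. Mouse embryonic stem cells (ESCs) of the naive state are known to use both respiration and glycolysis, and they shift toward glycolysis when they leave that state.

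Newly made RNA was labelled in mouse ESCs with 4-thiouridine (4SU), a uridine analogue built into transcripts during the pulse. All cells grew in L2i medium, and the 48 libraries form 24 groups of 2. FOXD3-iKO cells received 4-hydroxytamoxifen (4HT), which induces loss of the forkhead factor FOXD3, or its solvent ethanol, and were collected while cycling after 8, 14, 24 and 32 h. OCT4-tetOff cells received doxycycline, which shuts off the POU factor OCT4, or water, and were collected while cycling after 16 and 24 h. A further set of FOXD3-iKO cells went through a double thymidine block, was released from it 24 h after 4HT or ethanol, and was collected at 0, 1, 2, 3, 4 and 5 h of release. Both synchronized arms carried the thymidine treatment. Every 4HT group has the FOXD3-iKO genotype and every doxycycline group the OCT4-tetOff genotype, so the loss of the factor and the agent itself cannot be told apart. Doxycycline is also known to act on mitochondrial ribosomes.

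Library totals ran from 21827951 to 30406124 counts in cycling FOXD3-iKO cells, from 21113158 to 26112435 in OCT4-tetOff cells and from 7953841 to 17936504 in synchronized cells. Counts are given as CPM, counts per 1e+06 counts after scaling by edgeR's TMM factors. Foxd3 stood at 5.05 to 9.99 CPM with ethanol and 1.43 to 4.84 CPM with 4HT in cycling cells, and at 3.89 to 8.23 against 1.17 to 2.19 CPM in synchronized cells. Pou5f1, the OCT4 gene, stood at 176 to 226 CPM with water and 46.2 to 79.6 CPM with doxycycline. Foxd3 was also lower in the doxycycline libraries, at 1.88 to 9.48 against 20.2 to 36.4 CPM with water. Of 10 pluripotency markers, 9 were above 1 CPM in at least some libraries of each experiment; Sox2, whose interval lies inside that of Sox2ot, stayed below 1 CPM in every library. The summed CPM of these markers, Pou5f1 among them, overlapped between ethanol and 4HT (2058 to 2580 against 1974 to 2572 in cycling cells) and did not overlap between water (2193 to 2571) and doxycycline (770 to 1342). The 8 trophectoderm markers summed to 42 to 67.4 CPM with ethanol and 68.2 to 81.7 CPM with 4HT in cycling cells, and to 50.8 to 68.7 CPM with water and 112 to 148 CPM with doxycycline. In synchronized cells the trophectoderm sums overlapped (24.4 to 44.8 CPM with ethanol, 43.3 to 69.1 CPM with 4HT). The 8 primitive endoderm markers summed to 207 to 246 CPM with ethanol and 299 to 380 CPM with 4HT in synchronized cells. Their sums overlapped in cycling FOXD3-iKO cells (148 to 234 CPM with ethanol, 185 to 263 CPM with 4HT). They also overlapped in OCT4-tetOff cells (200 to 245 CPM with water, 192 to 229 CPM with doxycycline). Elf5 and Hand1 of the first list, and Sox17 and Foxa2 of the second, stayed below 1 CPM in every library, and 6 or 7 of 10 fibroblast markers did so in each arm. The fibroblast list summed to 17.9 to 20.5 CPM with water and 29 to 31.4 CPM with doxycycline, and its sums overlapped between ethanol and 4HT. The part of these markers in the results below was not tested, and in such bulk libraries fewer cells of a type and less RNA per cell cannot be told apart.

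Counts were summed over the whole interval of each gene, introns included, so the extent of each member bears on its value. Members had a median length of 7.333 kb against 3.332 kb for all 54752 listed genes, and 44 of the 102 overlap the interval of another gene. Among genes that passed the filter on low counts the members were the shorter ones. In cycling FOXD3-iKO cells 28 of 92 tested members were under 5 kb, against 3126 of 18707 genes. Above 50 kb there were 5 members and 4991 genes. Cox4i1 and Ndufa13, an oxidase and a complex I subunit that nearly all cells use, had 0 counts in every library. The Cox4i1 interval (chr8:120668222-120674207, + strand, mm10) overlaps Gm20388 on the same strand and Emc8 on the other, and the Ndufa13 interval (chr8:69894180-69902558, - strand) overlaps Yjefn3 on the same strand. Their 0 counts are therefore not read as absence. Atp5o, which encodes the stator subunit OSCP, is listed under 2 gene IDs, once as a gene of 6474 bases (chr16:91925214-91931687) and once as an interval of 242585 bases (chr16:91684398-91926982) that overlaps Donson, Cryzl1 and Itsn1. Values called Atp5o below are those of the short gene, and the long interval is counted as a separate member. Among tested members that overlap no other gene, 7 of 54 were lower after FOXD3 loss at 32 h, 18 of 54 after OCT4 loss at 24 h and 32 of 53 over release, the comparisons given below. Over all genes tested, overlapping or not, 4.59%, 18.7% and 18.4% were lower in the same order.

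After the filter on low counts, 92 members were tested in each cycling experiment and 91 in synchronized cells. The 10 members that passed in no experiment were Cox4i1, Ndufa13, 5 tissue isoforms or extra loci of complex IV (Ndufa4l2, Cox8b, Cox8c, Cox6a2 and Cox6c2) and 3 extra loci of complex I (Ndufa11b, Ndufs6b and Ndufb4c). Ndufa4l2 passed the filter only in the joint fit of both lines at 24 h, where 93 members were tested. Cox4i2, the lung and hypoxia isoform of subunit 4, passed in cycling cells only. Of the isoforms that are known mainly from muscle, testis or lung, Cox6b2 was the most abundant, with a mean of 12 CPM in cycling ethanol libraries and 20.3 CPM in the water libraries of OCT4-tetOff cells.

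The promoters below are examples with and without a motif match, and shares over all member promoters follow them. RefSeq's promoter table (GRCm38.p6, the assembly of mm10) held 80 of the 101 symbols. Each line gives the 250 bases before the start site, 5′ to 3′ on the strand of the gene, and capitals mark a match to one of 3 motifs of factors known to act at respiratory genes. Atp5g2 (a c-ring gene lower in all 3 main comparisons) has GCGCATGC, the motif of NRF1, on both strands, in 2 overlapping matches. Uqcr11 (lower over release) has CCGGAAGT, an ETS motif bound by GABPA, and one of the start sites of Atp5j (lower over release) has AAGATGGCG, the motif of YY1. Uqcr10 (lower in all 3) has none of them in this window.

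Atp5g2, chr15:102671048-102671297, - strand: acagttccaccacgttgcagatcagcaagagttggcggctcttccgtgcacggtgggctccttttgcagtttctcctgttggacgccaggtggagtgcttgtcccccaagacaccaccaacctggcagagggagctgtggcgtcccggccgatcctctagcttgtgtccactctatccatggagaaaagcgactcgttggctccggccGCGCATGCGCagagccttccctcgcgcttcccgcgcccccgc
Uqcr11, chr10:80406822-80407071, - strand: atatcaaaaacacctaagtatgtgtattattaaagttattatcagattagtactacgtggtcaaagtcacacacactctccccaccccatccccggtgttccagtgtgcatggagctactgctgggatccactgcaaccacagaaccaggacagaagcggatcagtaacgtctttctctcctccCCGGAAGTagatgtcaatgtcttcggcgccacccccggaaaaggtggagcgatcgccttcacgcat
Atp5j, chr16:84834977-84835226, - strand: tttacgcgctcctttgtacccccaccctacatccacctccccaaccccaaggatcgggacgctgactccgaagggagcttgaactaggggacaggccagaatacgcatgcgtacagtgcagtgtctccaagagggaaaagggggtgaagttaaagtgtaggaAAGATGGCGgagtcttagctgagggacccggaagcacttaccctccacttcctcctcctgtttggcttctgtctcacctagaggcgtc
Uqcr10, chr11:4704345-4704594, - strand: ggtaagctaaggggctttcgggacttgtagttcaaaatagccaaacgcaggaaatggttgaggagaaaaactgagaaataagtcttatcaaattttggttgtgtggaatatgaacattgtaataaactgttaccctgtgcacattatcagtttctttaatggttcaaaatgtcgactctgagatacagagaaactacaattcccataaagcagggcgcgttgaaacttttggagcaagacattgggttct

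Over windows of 300 bases (250 before and 50 after the start, both strands searched), GCGCATGC was present in 12 of the 80 member promoters (15%), against 3.05% of all 27025 genes in the table and 3.94% of its 17492 protein-coding genes. AAGATGGCG was present in 8 (10%), against 1.64% and 2.14%. CCGGAAGT was present in 5 (6.25%), against 4.31% and 5.69%. The YY1 motif was seen in 6 promoters of complex I and 2 of complex V, and in none of complexes II, III and IV. Among the members with a promoter and a test, GCGCATGC was present in 9 of 42 that were lower over release and 3 of 36 that were not. It was present in 6 of 25 that were lower after OCT4 loss and 6 of 53 that were not, and in 2 of 10 and 10 of 68 for FOXD3 loss at 32 h. The YY1 motif went opposite ways: it was present in 7 of 42 lower members and 1 of 36 others over release, in 0 of 25 and 8 of 53 after OCT4 loss, and in 2 of 10 and 6 of 68 at 32 h. CCGGAAGT was present in 4 of 42 and 1 of 36, 3 of 25 and 2 of 53, and 0 of 10 and 5 of 68 in the same order. These counts describe letters in a window, and no test was made of them.

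In control libraries the members had more CPM per kb of gene than all genes tested, by their medians. The kb are those of the whole interval, introns included. The median was 3.63 CPM per kb of gene in cycling FOXD3-iKO cells (92 members, means of 8 ethanol libraries), against 0.60 CPM per kb over all 18707 genes tested. By complex the medians were 6.83 CPM per kb for complex IV, 6.65 for complex V, 5.60 for complex III, 2.62 for complex I and 1.76 for complex II. Complex II was lowest and complex IV or V highest in each of the 3 experiments. Complex IV has the shortest genes (median 3.34 kb) and complex II the longest (20.7 kb). The part of gene length in these levels was not tested. The 5 highest members were Atp5b, the catalytic beta subunit of ATP synthase, at 31.2 CPM per kb, Cox7c at 30.8, Atp5a1, the alpha subunit, at 16.4, Atp5g3 at 14.2 and Cox8a at 13.1. The 5 lowest of those tested were the long Atp5o interval at 0.023 CPM per kb, Cox7b2 at 0.05, Cox4i2 at 0.067, Sdhaf3 at 0.19 and Ndufaf2 at 0.57. Atp5b and Cox7c were also the 2 highest in the water libraries of OCT4-tetOff cells (30.4 and 21.8 CPM per kb) and in synchronized ethanol libraries (20.1 and 21.9 CPM per kb). The 3 genes for the identical c-subunit of the ATP synthase ring differed in level, with 122 ± 13 CPM for Atp5g2, 40.8 ± 4.88 CPM for Atp5g3 and 23.5 ± 3.12 CPM for Atp5g1 (mean ± SD, n = 8 libraries over 4 times).

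**Figure D1:**
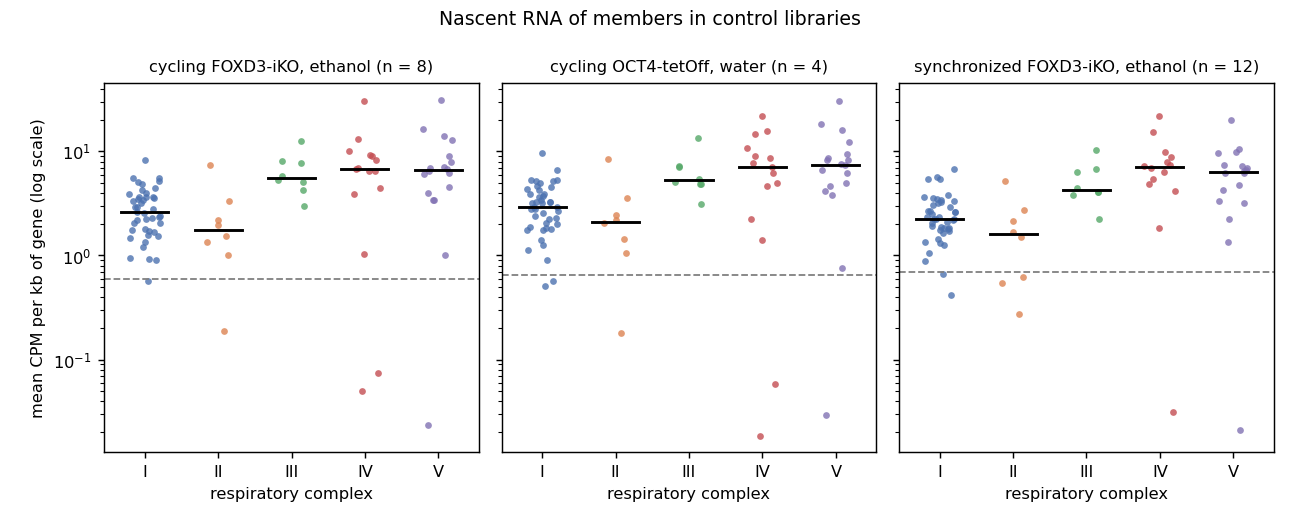
Level of each tested member per kb of gene (y axis, mean CPM per kb, log scale) by respiratory complex (x axis) in the control libraries of the 3 experiments. Points are genes, black bars are medians of a complex and the dashed line is the median of all genes tested (0.60 CPM per kb in cycling FOXD3-iKO cells); complexes III, IV and V sit above complexes I and II.

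Loss of FOXD3 in cycling cells was followed by lower nascent RNA of some members at 32 h, and by no call before that. Of 92 members tested, 12 were lower and none higher at 32 h (edgeR quasi-likelihood test, Benjamini-Hochberg adjusted p under 0.05 over all genes tested), where 4.59% of all genes tested were called lower and 4.88% higher. The median log2 fold change of the members was -0.21, against -0.05 over all genes. Both 4HT libraries lay below both ethanol libraries for 51 members, where the same held for 27.1% of all genes. Complex V had 4 lower of 18 (median -0.36), complex III 1 of 8 (-0.29), complex IV 2 of 15 (-0.22), complex II 1 of 8 (-0.16) and complex I 4 of 43 (-0.14).

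Uqcr10, a small subunit of complex III (chr11:4701973-4704342), gave 15.5 and 15.8 CPM with 4HT and 21.8 and 29.6 CPM with ethanol at 32 h. All of its 4HT values lay below its ethanol values, a log2 fold change of -0.72 (SE 0.14, adjusted p = 0.00679). Ndufaf3, an assembly factor of complex I, gave 1.83 and 1.63 against 3.26 and 4.02 CPM, a log2 fold change of -1.08 (SE 0.23, adjusted p = 0.00965). Its interval overlaps Impdh2 on the other strand, and no source used here gives the strand setting of the counting. Sdhaf1, which helps insert the iron-sulfur clusters of complex II, gave 2.12 and 1.90 against 2.99 and 4.02 CPM (log2 fold change -0.80, SE 0.20, adjusted p = 0.0228). Of the c-ring genes, Atp5g3 gave 28.8 in each 4HT library against 34.9 and 48 CPM (-0.53, SE 0.13, adjusted p = 0.0218), and Atp5g2 gave 84.8 and 84.1 against 102 and 118 CPM (-0.38, SE 0.10, adjusted p = 0.0246). Both c-ring genes thus had 4HT libraries close together and ethanol libraries further apart. The third c-ring gene, Atp5g1, gave 17.9 and 18.4 against 21.7 and 25.7 CPM and was not called (adjusted p = 0.0647).

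Cox7c, a small subunit of the oxidase, gave 46.5 and 50.01 against 60.6 and 68.9 CPM (log2 fold change -0.42, adjusted p = 0.0274). The remaining calls at 32 h were Cox5b (-0.57), Atp5mpl (-0.41), Atp5j2 (-0.39), Ndufb9 (-0.39), Ndufaf4 (-0.37) and Ndufc1 (-0.32). Atp5mpl and Atp5j2 encode small membrane subunits of ATP synthase, Ndufb9 and Ndufc1 accessory subunits of the complex I membrane arm, and Ndufaf4 a complex I assembly factor. None of the 7 core subunits of complex I and none of the 4 subunits of complex II was called.

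At 8 h, 14 h and 24 h no member was called in either direction by edgeR or by DESeq2, where edgeR called 0.0107%, 0.016% and 0.481% of all genes. At an unadjusted p under 0.05 the members were 2 at 8 h, 0 at 14 h and 2 at 24 h, against 34 at 32 h. The members' medians were 0.01, -0.04 and -0.02 on the log2 scale. Atp5g2 shows the course: 146 and 137 CPM with 4HT against 140 and 140 with ethanol at 8 h, 131 and 118 against 125 and 124 at 14 h, and 98.3 and 109 against 116 and 113 at 24 h. Its 4HT libraries lay below both ethanol libraries at 24 and 32 h and overlapped them at 8 and 14 h. The libraries of 8 and 14 h carry a separate series of library numbers from those of 24 and 32 h. Time and library series cannot be told apart between these 2 pairs of times. The difference between the 32 h and the 24 h response was itself called for no member and for 0% of genes (edgeR; 13 members at an unadjusted p under 0.05, and 0 members with DESeq2), so the later response is not shown to differ from the earlier one. Between ethanol libraries of 32 h and 24 h only Cox4i2 was called lower (0.321 and 0.446 against 0.781 and 1.42 CPM, log2 fold change -1.45, adjusted p = 0.0463), where 2.68% of all genes were lower. Leaving out single libraries gave 0 to 13 calls in this comparison, the highest number without ethanol replicate 2 of 32 h.

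The 32 h calls depended on single libraries and on scaling. Without ethanol replicate 1 of 32 h, 42 members were called; without ethanol replicate 2, 1; without either 4HT library of that time, 0; and without single libraries of earlier times, as few as 5. The reads of Gm26917 and Gm42418, genes known to collect ribosomal RNA reads, made up 14.3% and 28% of the 2 ethanol libraries and 13.9% and 12.5% of the 4HT libraries at 32 h. With total counts outside these 2 genes the members' median was -0.20 and that of all genes -0.02, 2 members were called lower and none higher, and calls over all genes were 802 higher and 289 lower. With total counts of all genes in place of TMM factors the median of all genes moved from -0.05 to 0.12, that of the members from -0.21 to -0.04, and those of complexes I and II to 0.03 and 0.01. Uqcr10 and Ndufaf3 were then the 2 members still called lower, while calls over all genes went from 913 higher and 858 lower to 1562 higher and 239 lower.

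Loss of OCT4 was followed by lower nascent RNA of some members of complexes I, III, IV and V. At 24 h of doxycycline 30 of 92 members were lower and 2 higher, against 18.7% and 18.1% of all genes, and the median was -0.29 against -0.01 over all genes (edgeR). The doxycycline libraries lay below the water libraries for 49 members, as for 32.8% of all genes. Complex V had 10 lower of 18 (median -0.45), complex III 5 of 8 (-0.42), complex IV 7 of 15 and 1 higher (-0.33), and complex I 8 of 43 and 1 higher (-0.24). The share of complex I members called lower was about that of all genes. Complex II had none of 8 called, with a median of 0.09. No test between complexes was made.

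The smallest p-value was that of Cox6b2, the testis isoform of oxidase subunit 6b (chr7:4751792-4753094). It gave 11.4 and 8.34 CPM with doxycycline and 19.8 and 19.4 CPM with water, a log2 fold change of -0.99 (SE 0.15, adjusted p = 0.00084). The common isoform gene Cox6b1 was also lower, by a log2 fold change of -0.28 (adjusted p = 0.047). Cox5a, an oxidase subunit facing the matrix, gave 46.3 and 40.8 against 67.9 and 64 CPM (-0.60, SE 0.09, adjusted p = 0.00122), and was the one member already lower at 16 h (58.1 and 58 against 71.7 and 75.5 CPM, -0.34, adjusted p = 0.0351). Cox7a1, the heart and muscle isoform of subunit 7a, was higher at both times: 5.10 and 5.39 against 2.72 and 3.19 CPM at 16 h (0.83, SE 0.19, adjusted p = 0.0155), and 4.63 and 3.47 against 2.53 and 2.43 CPM at 24 h (0.71, SE 0.19, adjusted p = 0.0178). Of 8 muscle markers, Actc1, Ckm, Acta1 and Myh7 stayed below 1 CPM in every library of these cells, Myl2 and Myh6 did so with water but not with doxycycline, and Tnnt2 and Mb reached 1 CPM in at least 1 library of each arm. Their sum was 5.02 to 5.55 CPM with water and 7.06 to 8.81 CPM with doxycycline, without overlap. Of the 5 that could be tested, 1 was higher at 16 h and 3 at 24 h, and none lower. Their part in the values of Cox7a1 was not tested. At 16 h Cox5a and Cox7a1 were the only 2 calls among the members, where 7.94% of all genes were higher and 8.91% lower. Without any single library of 16 h neither was called, and without doxycycline replicate 1 or 2 of 24 h 7 and 5 members were called at 16 h.

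In complex III, Uqcr10 gave 19.5 and 15.1 against 31.6 and 26.4 CPM at 24 h (log2 fold change -0.74, SE 0.14, adjusted p = 0.00314). Uqcrq, Uqcr11, Uqcrb and Uqcrc1 completed the 5 calls, at -0.58, -0.49, -0.43 and -0.29, and are named here after their values were seen. The Rieske iron-sulfur protein gene Uqcrfs1 (-0.40, adjusted p = 0.07) and Uqcrc2 (-0.08) were not called. In ATP synthase all 3 c-ring genes were lower: Atp5g2 at 80.0 and 65.6 against 118 and 96.7 CPM (-0.56, SE 0.13, adjusted p = 0.00827), Atp5g1 at 17.5 and 15.2 against 26.2 and 20.7 CPM (-0.52), and Atp5g3 at 35.3 and 25.7 against 44.7 and 38 CPM (-0.44, adjusted p = 0.0394). In each, doxycycline replicate 2 was the lowest library. Atp5o gave 17.6 and 14.6 against 27.2 and 22.4 CPM (-0.62, SE 0.13, adjusted p = 0.00467). Atp5a1 gave 125 and 106 against 174 and 147 CPM (-0.48, adjusted p = 0.0156), while its partner Atp5b, at 170 and 122 against 217 and 182 CPM, missed the threshold (adjusted p = 0.0501). Atp5k (-0.76) and Atp5s (-0.53) were also lower.

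In complex I the assembly factors Ndufaf3 and Ndufaf4 were lower, the first at 2.88 and 1.92 against 4.90 and 4.44 CPM (-0.96, SE 0.20, adjusted p = 0.00486) and the second at 19.6 and 19.2 against 33.8 and 24.9 CPM (-0.60). Ndufb5, an accessory subunit, gave 37.3 and 34.1 against 44.8 and 47.9 CPM (-0.38, adjusted p = 0.00927). Of 7 core subunits only Ndufv1, which binds NADH, was lower (25 and 21.5 against 32.1 and 29.1 CPM, -0.40, adjusted p = 0.0285). Ndufa12, an accessory subunit whose gene spans 22724 bases, was higher, at 64.2 and 71.8 against 52.7 and 56.1 CPM (0.32, SE 0.09, adjusted p = 0.0256). The 4 subunits of complex II gave log2 fold changes of 0.11 for Sdha, 0.07 for Sdhc, -0.29 for Sdhd and -0.31 for Sdhb, with adjusted p from 0.0716 to 0.54. Sdha, the flavoprotein, had 111 and 110 CPM with doxycycline and 101 and 104 CPM with water.

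The number of calls at 24 h was 7 without water replicate 1, 12 without doxycycline replicate 2 and 54 without doxycycline replicate 1. With total counts alone it was 20, of which 17 lower, beside 3546 higher and 2594 lower genes where TMM factors gave 3210 and 3321. The difference between the 24 h and 16 h responses was called for no member and for 0% of genes with edgeR; 4 members had an unadjusted p under 0.05, and DESeq2 called 0 members. At 16 h the members' median was -0.09 and turned to 0.06 with total counts alone, under which the median of all genes was 0.15 and the calls over all genes moved from 1407 higher and 1579 lower to 2392 and 1019.

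**Figure D2:**
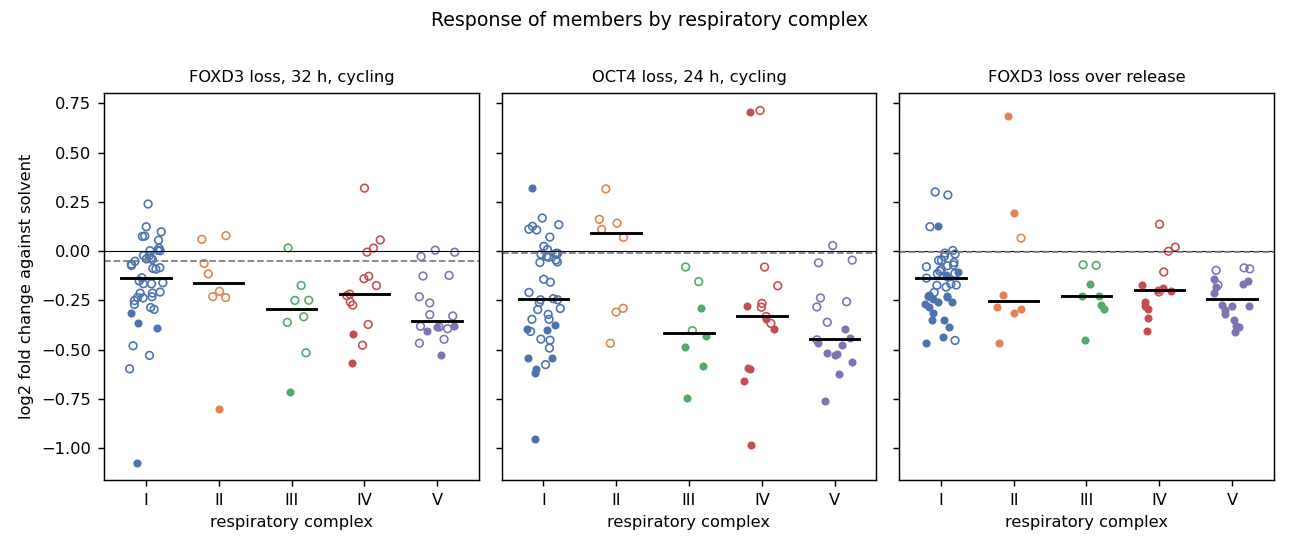
Log2 fold change against solvent (y axis) of each tested member by respiratory complex (x axis) for FOXD3 loss at 32 h, OCT4 loss at 24 h and FOXD3 loss over the 6 release times. Filled points were called (edgeR adjusted p under 0.05), open points were not, black bars are medians of a complex and the dashed line is the median of all genes tested; the complex V bars lie at -0.36, -0.45 and -0.24.

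In synchronized cells some members of all 5 complexes were lower with 4HT than with ethanol, by small amounts. Taking the 6 release times together, with time as a covariate, 51 of 91 members were lower and 3 higher, against 18.4% and 18.6% of all genes (edgeR). The median was -0.19, against -0.01 over all genes, with 12 libraries in each arm. All ethanol libraries are numbered before all 4HT libraries, so treatment and library order cannot be told apart. The group means were lower at all 6 times for 28 members, as for 14.3% of all genes. For no member did all 12 libraries of one arm lie below all 12 of the other. All 4HT libraries lay below all ethanol libraries for 0.163% of all genes. Lower members were 14 of 18 in complex V (median -0.24), 6 of 8 in complex III (-0.23), 9 of 14 in complex IV (-0.20), 5 of 8 in complex II (-0.25) and 17 of 43 in complex I (-0.14).

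Atp5mpl, a small membrane subunit of ATP synthase (chr12:111961375-111966977), had the smallest p-value. Its 4HT libraries ran from 22.2 to 31.6 CPM (median 26.3) and its ethanol libraries from 29.2 to 38.9 CPM (median 35.7), a log2 fold change of -0.41 (SE 0.05, adjusted p = 7.01e-06). The ranges met only between 29.2 and 31.6 CPM. Ndufs6, an accessory subunit of complex I, ran from 34.8 to 41 (median 38.5) against 40.5 to 55.8 CPM (median 48.4), a log2 fold change of -0.35 (SE 0.05, adjusted p = 2.06e-05). Cox6c ran from 58.7 to 70.6 (median 64.2) against 67.7 to 86.2 CPM (median 80.8), a log2 fold change of -0.29 (SE 0.04, adjusted p = 2.61e-05). Uqcr11 of complex III ran from 9.83 to 13.1 (median 11.2) against 10.9 to 19.2 CPM (median 16.1), a log2 fold change of -0.45 (SE 0.07, adjusted p = 6.1e-05). For Atp5mpl, Ndufs6 and Cox6c the 4HT median lay below the lowest ethanol library, and for Uqcr11 it lay just above it.

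The membrane anchor subunits of complex II were lower too: Sdhc at 37.7 to 43.4 (median 40.9) against 41.7 to 54.6 CPM (median 51.4; -0.31, adjusted p = 4.28e-05), and Sdhd at 27.5 to 34.1 (median 31.5) against 33.2 to 46.7 CPM (median 39; -0.30, adjusted p = 7.7e-05). Sdhb, the iron-sulfur subunit, was lower by a smaller amount (-0.22, adjusted p = 0.0121), and Sdha was not called (0.07, adjusted p = 0.636). The assembly factors of complex II split: Sdhaf1 (-0.47) and Sdhaf4 (-0.28) were lower and Sdhaf2 and Sdhaf3 higher. Sdhaf3 ran from 20.9 to 59.9 (median 36.3) against 11.8 to 45.2 CPM (median 21.8), a log2 fold change of 0.69 (SE 0.13, adjusted p = 0.000284), with wide overlap of the arms. Sdhaf2, which attaches FAD to Sdha, ran from 38.2 to 49.9 (median 42.4) against 32.5 to 40.2 CPM (median 37; 0.19, adjusted p = 0.000643). The third higher member was Ndufs1, the largest core subunit of complex I (75.5 to 114 against 73.7 to 93.8 CPM; 0.13, adjusted p = 0.0202). With total counts alone Sdhaf2 turned to -0.013 and Ndufs1 to -0.083, and neither was called; Sdhaf3 stayed higher.

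By role, lower members were all 3 c-ring genes, all 4 membrane subunits and 5 of 6 stalk members of ATP synthase but 2 of 5 F1 subunits. The stalk members include Atp5s, a factor linked to the stalk, and both gene IDs of Atp5o, each of them lower. Counts of lower complex V members over release and after OCT4 loss at 24 h thus hold Atp5o under both IDs. Atp5g2 ran from 65 to 102 (median 82) against 76.8 to 114 CPM (median 101; -0.27, SE 0.05, adjusted p = 0.000455). Atp5e, the smallest F1 subunit, was lower (-0.38), as were Atp5j2 and Atp5h (-0.28 each), while Atp5b (-0.10, adjusted p = 0.34) was not called. In complex I, 15 of 28 accessory subunits were lower against 1 of 7 core subunits, with 1 core subunit higher, and 1 of 8 assembly factors. In complex IV, 8 of 10 accessory subunits were lower and none of 3 tissue isoforms was called. Cox5a, lower after OCT4 loss, was at 0.02 here and not called (adjusted p = 0.79).

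Summed over its genes without the long Atp5o interval, ATP synthase made up 877 to 1038 CPM with ethanol (962 ± 55.6, mean ± SD, n = 12) and 807 to 898 CPM with 4HT (851 ± 32.8). At 0 h of release the arms were close, with 884 and 877 CPM for ethanol and 889 and 890 CPM for 4HT. At each of 1, 2, 3, 4 and 5 h both ethanol libraries lay above both 4HT libraries, from 985 and 1003 against 835 and 898 CPM at 1 h to 988 and 1038 against 819 and 815 CPM at 5 h. Complex III summed to 252 ± 17 against 223 ± 9.21 CPM, complex IV to 566 ± 29.2 against 498 ± 38 CPM, complex I to 1387 ± 46.1 against 1356 ± 42.9 CPM, and complex II to 265 ± 18.5 against 264 ± 13.6 CPM. The complex II sum adds subunits that were lower and the assembly factors Sdhaf2 and Sdhaf3 that were higher.

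**Figure D3:**
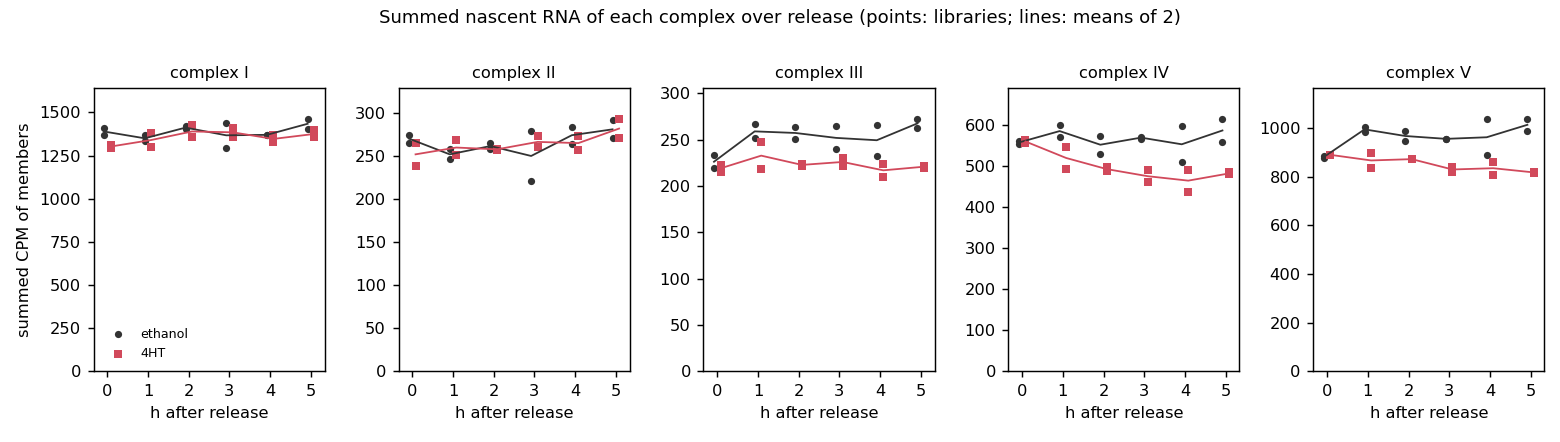
Summed CPM of the members of each complex (y axis, from 0) by h after release (x axis) in synchronized FOXD3-iKO cells; points are libraries, lines are means of 2, black for ethanol and red for 4HT. The arms of complex V meet at 0 h and separate from 1 h on in their means, whereas those of complex II overlap.

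By release time the members' medians were 0.03 at 0 h, then -0.25, -0.15, -0.24, -0.19 and -0.26 at 1 to 5 h. At 0 h no member was called (edgeR; 8 at an unadjusted p under 0.05), where 0.0564% of all genes were lower. Cox6c was lower at 1 h (60.1 and 60.4 against 83.2 and 82.3 CPM, -0.46, adjusted p = 0.0333; 0.581% of genes lower). At 2 h none was called, with 15 at an unadjusted p under 0.05 (0.265% of genes lower). At 3 h Atp5mpl (-0.63), Atp5o (-0.57) and Atp5h (-0.41) were lower (1.21% of genes), and at 4 h Atp5h (-0.54; 0.152% of genes). At 5 h 7 members were lower, against 1.13% of all genes: Uqcr11, Atp5g3, Ndufa2, Atp5mpl, Uqcr10, Atp5o and Cox8a. Atp5g3 gave 19.6 and 18 CPM with 4HT against 35.8 and 30.5 CPM with ethanol at 5 h (-0.82, SE 0.17, adjusted p = 0.022), and Uqcr10 gave 15.7 and 17.6 against 30.7 and 24.7 CPM (-0.74, SE 0.18, adjusted p = 0.0443). A change of the 4HT response with release time was called for no member and 0% of genes (edgeR, joint test of 5 differences; 10 members at an unadjusted p under 0.05, and 0 members with DESeq2), so the median near 0 at 0 h is a description only.

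**Figure D4:**
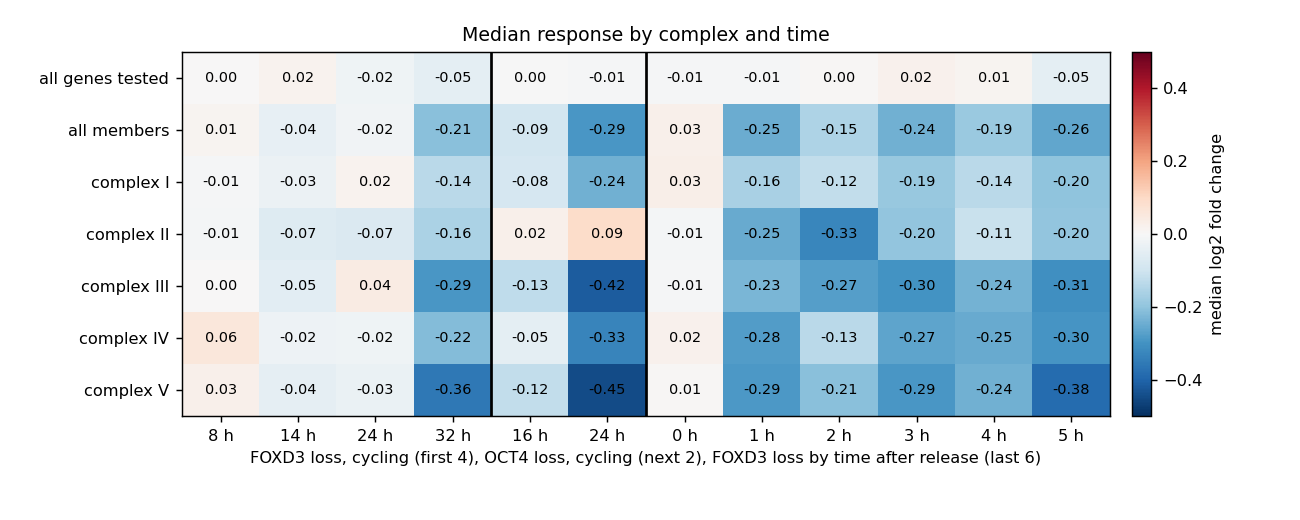
Median log2 fold change against solvent of all genes tested, all members and each complex (rows) at each time of each experiment (columns; colour scale from -0.5 to 0.5, value printed in each cell). The lowest medians of complex V are -0.45 after OCT4 loss at 24 h, -0.38 at 5 h of release and -0.36 after FOXD3 loss at 32 h.

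Scaling on total counts raised the number of lower members, while RLE factors gave 47 and DESeq2 46. With total counts alone 82 were lower and 1 higher (median -0.40), while the median of all genes moved to -0.21 and the calls over all genes from 3300 higher and 3265 lower to 796 and 7413. With total counts outside Gm26917 and Gm42418, 76 members were lower and 1 higher (median -0.35; 1295 genes higher and 6198 lower; median of all genes -0.17). Leaving out any of the 24 libraries gave 43 to 59 calls.

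Within the ethanol arm, release from the block moved 9 members (6 higher and 3 lower, by the largest difference from 0 h), where 9.3% of all genes were higher and 10.1% lower. Atp5s, a factor linked to the ATP synthase stalk, fell from 44.1 and 37 CPM at 0 h to 21.1 and 21.2 CPM at 5 h (log2 fold change -0.93, adjusted p = 0.000102). Atp5a1 rose from 71.4 and 69.6 CPM to 105 and 101 CPM (0.54, adjusted p = 0.0386). Ndufa12 (0.61), Sdhaf3 (0.83), Uqcrc1 (0.55) and Uqcr11 (0.67) were among the others that rose, and Ndufaf1 (-0.54) and Cox5a (-0.44) fell. In the 4HT arm 2 members were higher and 5 lower (6.76% and 8.61% of all genes). Atp5s fell from 34.6 and 34 to 18.8 and 17.4 CPM (-0.92, adjusted p = 0.000474), and Cox5a from 141 and 134 CPM at 0 h to 78.9 and 87.6 CPM at 4 h (-0.72, adjusted p = 0.000492). Ndufaf1 (-0.58), Ndufb6 (-0.66) and Cox6b1 (-0.54) fell, and Ndufa12 (0.53) and Atp5h (0.29) rose. The median change from 0 h over all members was 0.12 to 0.19 at 1 to 5 h with ethanol (complex V 0.18 to 0.38, complex III 0.19 to 0.39), and -0.13 to -0.03 with 4HT. All these changes are relative to the same pair of 0 h libraries in each arm. In the ethanol arm the number of calls was 4 and 3 without ethanol replicate 1 or 2 of 0 h, 15 and 30 without those of 3 h, and 25 and 16 without those of 4 h. In the 4HT arm it was 2 without either 4HT library of 0 h, 4 without either of 3 h, replicate 1 of 4 h or replicate 2 of 5 h, and 11 without ethanol replicate 1 of 3 h.

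The 3 main comparisons share no library. Of the members tested in all of them, 4 were lower in each: Atp5g2 and Atp5g3 of the c-ring, Uqcr10 of complex III and Cox7c of complex IV. FOXD3 loss at 32 h and OCT4 loss at 24 h shared 6 lower members, 50% of the first list and 20% of the second. FOXD3 loss at 32 h and over release shared 9, 75% and 17.6%. OCT4 loss and FOXD3 loss over release shared 20, 66.7% and 39.2%. Over all genes tested in both, the matching shares were 56.6% and 14.6%, 59.6% and 15.5%, and 35.9% and 37.0%. Base rates differ: over release 51 of 91 members were lower against 18.4% of all genes. After OCT4 loss 30 of 92 were lower against 18.7%. The overlaps were not adjusted for these rates. In all, 62 members were lower in at least 1 of the 3.

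The direct comparison of the responses to FOXD3 and OCT4 loss at 24 h, each against its own solvent, called 7 of 93 members with a higher response to FOXD3 loss and none with a lower one, against 9.08% and 7.4% of all genes. They were Cox6b2, Cox5a, Ndufb6, Ndufv1, Atp5o, Uqcr10 and Ndufaf3. None of the 7 was called after FOXD3 loss at that time, and all 7 were lower after OCT4 loss. The median difference of the members was 0.26 against 0.02 over all genes. Shorter genes had higher differences. The rank correlation (Spearman's rho) with gene length was -0.60 over 93 members and -0.30 over 18437 genes. With a smooth trend on gene length removed from each library, the members' median was 0.06, against -0.002 over all genes. In that setting 9 members were higher and 1 lower, beside 2724 and 2362 genes. Cox6b2 gave 13.4 and 15.6 CPM with 4HT and 12.4 and 12.3 CPM with ethanol at 24 h, a response of 0.23, against -0.99 after OCT4 loss (difference 1.22, SE 0.21, adjusted p = 0.00374). The count of calls was 1 to 3 without any of 6 of the 8 libraries, 13 without water replicate 2 and 29 without doxycycline replicate 1.

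Short members had lower values than long ones in each of the main comparisons. The rank correlation (Spearman's rho) between log2 fold change and gene length was 0.65 over 92 members for FOXD3 loss at 32 h, 0.63 over 92 for OCT4 loss at 24 h and 0.61 over 91 for FOXD3 loss over release, and 0.30, 0.31 and 0.47 over all genes tested. These are descriptions across genes that share libraries, and genes are not replicates. In length classes chosen after the values were seen, members under 5 kb had medians of -0.37, -0.47 and -0.29 in the same order, and those of 20 to 50 kb had -0.12, 0.02 and -0.04. All genes tested gave -0.28, -0.34 and -0.20 under 5 kb, and -0.01, 0.05 and 0.03 at 20 to 50 kb. Lower members under 5 kb were 7, 14 and 19 of 28, where 10.9%, 27.6% and 30.8% of all genes of that class were called lower. At 5 to 10 kb they were 5, 9 and 22 of 30, against 5.89%, 24.5% and 33.3%, so that the 9 after OCT4 loss lay near the share of all genes of that length.

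**Figure D5:**
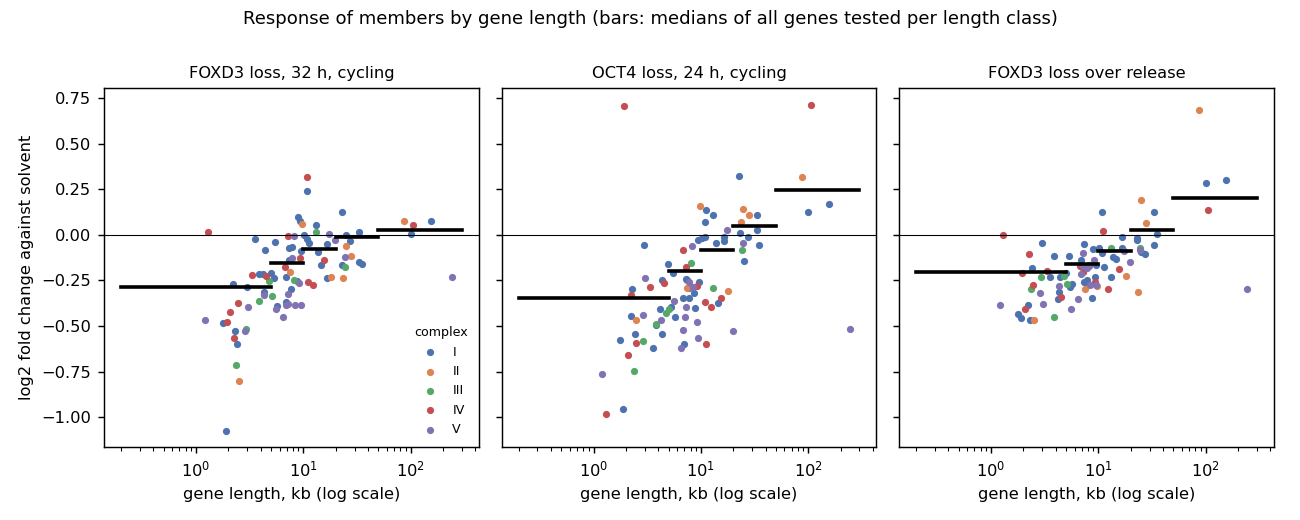
Log2 fold change against solvent (y axis) of each tested member against gene length (x axis, kb, log scale), coloured by complex, for the 3 main comparisons. Black bars are medians of all genes tested in each length class; for FOXD3 loss at 32 h the bars go from -0.28 under 5 kb to 0.03 above 50 kb, and the members' medians from -0.37 to 0.06.

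The complexes differ in the length of their genes, with medians of 3.34 kb for complex IV, 4.91 kb for complex III, 7.47 kb for complex V, 7.8 kb for complex I and 20.7 kb for complex II. When a smooth trend on gene length was removed from each library, 8 members were lower and 1 higher for FOXD3 loss at 32 h (median -0.07; 6.62% of all genes lower and 7.32% higher). For OCT4 loss at 24 h, 24 were lower and 4 higher (median -0.13; 24.3% lower and 22.2% higher). Over release, 18 were lower and 4 higher (median -0.06; 12.7% lower and 13.4% higher). Complex V then held 5 of the 8, 9 of the 24 and 7 of the 18 lower members, with medians of -0.16, -0.23 and -0.11. Complex III had 1, 3 and 1 lower, and complex II had 1, 1 and 3. The remaining lower members belonged to complexes I and IV. After OCT4 loss the members' share of lower genes with this correction, 24 of 92, was thus close to that of all genes. For FOXD3 loss at 32 h, 8 of 92 was also near the 6.62% of all genes.

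Other genes of the respiratory pathway were followed through lists chosen by function. Their counts stand against 4.59% of all genes lower and 4.88% higher at 32 h, 18.7% and 18.1% after OCT4 loss at 24 h, and 18.4% and 18.6% over release. Of 13 subunits encoded by mitochondrial DNA, 11 were tested over release and all 11 were lower, with a median of -1.04. mt-Cytb, which encodes the cytochrome b of complex III, stood at 403 ± 120 CPM with 4HT and 833 ± 259 CPM with ethanol (n = 12 each; log2 fold change -1.07, SE 0.12, adjusted p = 1.21e-06). In cycling cells 7 of the 13 were tested: none was called after FOXD3 loss at 32 h (median -0.08), and 2 were lower after OCT4 loss at 24 h (median -0.41). Of 39 tested assembly factors outside the naming rule, 2 were lower and none higher at 32 h, 5 lower and 1 higher after OCT4 loss, and 16 lower and 6 higher over release. The first of these counts was near the share of all genes, and the count of lower factors after OCT4 loss was below it. Coa6, a copper factor of the oxidase, was lower over release (-0.62, adjusted p = 6.23e-07), and Uqcc1, a complex III factor, was higher (0.33, adjusted p = 3.41e-05).

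Of 14 electron carriers and adenine nucleotide or ion channels of the mitochondrial membranes, 3 were lower and 1 higher at 32 h, 4 and 2 after OCT4 loss, and 4 and 3 over release. Cyc1, the cytochrome c1 subunit of complex III, was lower at 32 h (-0.64, adjusted p = 0.0188) and after OCT4 loss (-0.79, adjusted p = 0.00327). Slc25a4, an exchanger of ADP and ATP, was higher over release, at 71.4 ± 3.52 against 39.8 ± 4.21 CPM (0.85, SE 0.05, adjusted p = 1.31e-10). Of 15 nuclear regulators of respiratory genes, 1 was lower at 32 h, 4 lower and 2 higher after OCT4 loss, and 2 lower and 5 higher over release. Ppargc1b, a coactivator of these genes, was lower at 32 h (15.3 ± 0.52 against 26.3 ± 4.76 CPM, mean ± SD, n = 2 each, -0.78, SE 0.12, adjusted p = 0.00105) and after OCT4 loss (2.97 ± 0.028 against 13.7 ± 2.19 CPM, -2.21, SE 0.15, adjusted p = 8.17e-06). Over release Nrf1 was higher (0.31, adjusted p = 0.000115) and Esrra lower (-0.41, adjusted p = 4.84e-05).

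Of 18 genes of the citric acid cycle and its entry, 1 was lower at 32 h, 2 lower and 3 higher after OCT4 loss, and 3 lower and 4 higher over release, with medians of -0.08, 0.09 and 0.01. Of 20 tested genes of glycolysis, 13 were lower and none higher at 32 h (median -0.43), 13 lower and 4 higher after OCT4 loss (-0.60), and 10 lower and 2 higher over release (-0.15). Pgk1 led at 32 h (51.9 ± 0.95 against 81.5 ± 1.91 CPM, n = 2 each, -0.65, adjusted p = 0.00024). After OCT4 loss the hexokinases moved apart, with Hk1 higher (0.94) and Hk2 lower (-1.18). Of 13 genes for mitochondrial transcription and replication, none was called at 32 h, 4 were lower after OCT4 loss, and 4 were lower and 1 higher over release. Of 13 genes of coenzyme Q synthesis, none was called at 32 h, 2 were lower and 1 higher after OCT4 loss, and 3 were lower and 1 higher over release.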

How the data were processed

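Nascent RNA of 48 libraries was analysed from 3 tables of raw counts per gene, which the authors deposited without normalization. Per the submitters' processing notes, STAR aligned the reads to mm10 and featureCounts counted them; no source used here gives their versions, the strand setting or the rule for multiply matching reads. The labels' protocols give Trizol LS extraction, the KAPA RNA HyperPrep kit and 4SU pulses of 30 min (cycling) or 15 min (synchronized). In all 54752 genes the listed length equals the whole interval. Gene IDs were matched to symbols without version (54723 of 54752).

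Each table was fitted whole with edgeR 4.0.16 under R 4.3.3 by the quasi-likelihood test, using TMM factors, filterByExpr with a minimum count of 10 and one mean per group. Calls are at a Benjamini-Hochberg adjusted p under 0.05 over all genes tested, and SE is the size of the log2 fold change over the root of F. The 24 h responses of both lines were compared in 1 joint fit of their 8 libraries. The fit was also run on simulated counts with known changes. Apart from those changes, the simulated libraries differed only in total counts and random spread, without a trend on gene length. They therefore do not bear on such a trend or on other differences between libraries. A count of 3 corresponds to 0.0987 to 0.377 CPM across libraries, for counting error only. Separate cultures are not stated for replicates, so p-values describe only the variation among these libraries, which may be technical. No replicate pair held identical counts. In synchronized cells the library numbers of all ethanol libraries come before those of all 4HT libraries. Treatment and library order cannot be told apart there.

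Other settings were DESeq2 1.42.0, RLE factors, total counts with and without Gm26917 and Gm42418, a fit of the compared groups alone, no low-count filter, the replicate number as a block, removal of a trend on gene length, the mean of the 6 release contrasts, and leaving out each library. Named members are the 12 smallest p-values in each direction among called members whose libraries do not overlap (over release, whose group means differ one way at all 6 times; for time courses and differences of responses, the called members), the 5 highest and 5 lowest levels, the c-ring genes and tissue isoforms. Members and lists were chosen with earlier results of these data known. The values of 1 member are not reported here.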

Additional observations from a re-analysis of the deposited data

Results flagged for a closer look

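At 24 h the response to FOXD3 loss was above that to OCT4 loss for 7 members, by a test of the difference itself (edgeR, joint fit of 8 libraries, log2 scale). These were 7 of 93 tested, where 9.08% of all genes were called in that direction. In this fit, without the replicate number as a block, the members' share lay below that of all genes. With the block more members were called, as given below. DESeq2 and either scaling on total counts called 3 members, leaving out either ethanol library called 1, leaving out either 4HT library, water replicate 1 or doxycycline replicate 2 called 2 or 3, and leaving out water replicate 2 or doxycycline replicate 1 called 13 and 29. The differences were 1.22 for Cox6b2 (adjusted p = 0.00374), 0.69 for Cox5a (0.0132), 0.71 for Ndufb6 (0.016), 0.60 for Ndufv1 (0.0322), 0.63 for Atp5o (0.0408), 0.66 for Uqcr10 (0.0444) and 1.07 for Ndufaf3 (0.0474). Cox5a gave 86.7 and 96.9 CPM with 4HT against 87.1 and 85.5 with ethanol, and 46.3 and 40.8 with doxycycline against 67.9 and 64 with water. Ndufb6 gave 26.3 and 28 against 22 and 21.9 CPM, and 20.7 and 17.1 against 26.1 and 23.8 CPM. Ndufb6, Ndufv1 and Cox6b2 had 4HT libraries above both ethanol libraries and doxycycline libraries below both water libraries. The 2 lines differ in genotype and agent, which cannot be told apart from the factor lost.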

How the results depend on the processing

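Numbers of members called moved with scaling, with the libraries in the fit and with the length trend, while signs of named members held except for 2 genes over release. With total counts alone Sdhaf2 turned to -0.013 and Ndufs1 to -0.083, and with total counts outside Gm26917 and Gm42418 Ndufs1 turned to -0.036. With total counts alone the calls were 2 for FOXD3 loss at 32 h, 1 for OCT4 loss at 16 h, 20 for OCT4 loss at 24 h, 3 for the difference between FOXD3 and OCT4 responses, 83 over release, 2 for release in ethanol and 3 for release in 4HT. With total counts outside those genes they were 2 at 32 h, 1 at 16 h, 3 for the difference between responses and 4 for release in ethanol. Other splits over all genes that moved by over 10 points, leaving aside FOXD3 loss at 8 and 14 h with at most 7 genes called, were 157 higher and 742 lower for ethanol at 32 h against 24 h (505 and 501 with TMM factors) and 561 and 2075 for release in 4HT (1200 and 1527), both outside those genes. With total counts alone they were 550 and 1229 for release in ethanol (1649 and 1792) and 2392 and 1019 for OCT4 loss at 16 h (1407 and 1579). DESeq2 gave 863 and 512 for ethanol at 32 h against 24 h, and removal of the length trend 260 and 99 for FOXD3 loss at 24 h (75 and 15).

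With only the compared groups in the fit the calls were 0 at 32 h, 0 for ethanol at 32 h against 24 h, 26 for OCT4 loss at 16 h (23 lower), 13 at 24 h, 1 for release in ethanol and 20 for release in 4HT. Without the low-count filter 1 was called for the 32 h less the 24 h FOXD3 response, 1 for the 24 h less the 16 h OCT4 response, 12 for the difference between FOXD3 and OCT4 responses and 3 for the response by release time. With DESeq2 the calls were 3 for ethanol at 32 h against 24 h, 3 for the difference between FOXD3 and OCT4 responses and 15 for release in ethanol. With the length trend removed they were 10 for ethanol at 32 h against 24 h, 11 for OCT4 loss at 16 h (8 lower) and 22 over release. The cause of these shifts was not tested, apart from the libraries left out of a fit.

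Leaving out each library in turn gave 0 to 42 calls at 32 h, 0 to 5 for the 32 h less the 24 h response, 0 to 13 for ethanol at 32 h against 24 h, 0 to 7 for OCT4 loss at 16 h, 7 to 54 at 24 h, 0 to 1 for the 24 h less the 16 h response, 1 to 29 for the difference between FOXD3 and OCT4 responses, 43 to 59 over release, 3 to 30 for release in ethanol and 2 to 11 for release in 4HT. The members' median stayed below 0 in each such fit, from -0.26 to -0.13 at 32 h, from -0.43 to -0.16 for OCT4 loss at 24 h and from -0.22 to -0.16 over release. At 8, 14 and 24 h of FOXD3 loss no member was called in any of them.

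The replicate numbers were not taken as pairing samples, because the labels state no pairing. Deviations of same-numbered libraries correlated from -0.158 to 0.284 in cycling FOXD3-iKO cells, -0.161 and 0.574 in OCT4-tetOff cells and from 0.01 to 0.306 in synchronized cells. The value of 0.574 belongs to water and doxycycline at 24 h and was the highest of all pairs of groups in OCT4-tetOff cells. A pairing of those libraries is therefore not excluded. With the replicate block the calls were 0 for ethanol at 32 h against 24 h, 45 for the difference between FOXD3 and OCT4 responses (40 higher), 19 for release in ethanol and 11 for release in 4HT, and within 1.5 times the number without the block in the other comparisons. Groups of 2 libraries and 7953841 counts in the shallowest library limit what could be called at single times.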
